A study of Mus musculus with 2 samples.

Results

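The genes described here encode the nuclear part of the mitochondrial respiratory chain and ATP synthase in mouse kidney. They were chosen by symbol alone: every gene whose symbol starts with Nduf, Uqcr, Atp5, Cox4, Cox5, Cox6, Cox7 or Cox8, together with Sdha, Sdhb, Sdhc and Sdhd. The rule selected 94 of the 32285 genes listed in each section. Of these, 76 encode structural subunits of complexes I to V, 8 encode complex I assembly factors, 8 encode tissue isoforms of complex IV subunits, and the others are the supercomplex factor Cox7a2l and the gene Ndufb1-ps. The deposited symbol of the latter (ENSMUSG00000113902) names a pseudogene. By symbol or synonym, and not by identifier, it was matched to the complex I subunit gene Ndufb1 in RefSeq. It is therefore given beside complex I and outside its sums.

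Kidneys came from C57BL/6 mice with unilateral ureteral obstruction, a surgery that ties off the ureter of 1 kidney and leads to tubule injury and fibrosis, and were collected 7 days after it. One section came from a mouse given SH045, an inhibitor of the cation channel TRPC6, and the other from a mouse given the vehicle. Both sections carry the obstruction label, no age is given, and no other allele or agent is named. RNA was measured with 10x Genomics Visium, on which barcoded spots capture polyadenylated RNA, each from an area wide enough for more than 1 cell. The groups hold 1 section each, so no test between them was possible, and the intervals given below cover counting error only, not the variation between mice or sections.

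Complexes I and II pass electrons from NADH and succinate to ubiquinone, complex III passes them to cytochrome c, and complex IV passes them to oxygen. Complexes I, III and IV pump protons across the inner membrane, and complex V, the ATP synthase, uses the return flow to make ATP. Most subunits are encoded in the nucleus and the remainder in mitochondrial DNA. In the kidney, the proximal tubule, the thick ascending limb and the distal convoluted tubule are rich in mitochondria.

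Promoter sequences are shown for 6 genes on which the results turn: the isoform pair Cox7a1 and Cox7a2, the Atp5g1, Atp5g2 and Atp5g3 genes, which all encode the same mature subunit c of ATP synthase, and Atp5k, the complex V subunit with the lowest ratio between sections. Each runs from 250 bases before to 50 bases after the annotated start, 5′ to 3′ on the gene's strand, from RefSeq on build GRCm38.p6. Capitals mark matches, on either strand, to motifs of 4 factors known to act on respiratory chain genes. These were NRF1 (GCGCANGCGC), YY1 (AANATGGC), ETS factors (CCGGAAG) and ERR receptors (AAGGTCA), where N is any base. No motif contains another.
Cox7a1 (chr7:30183921-30184220, plus strand): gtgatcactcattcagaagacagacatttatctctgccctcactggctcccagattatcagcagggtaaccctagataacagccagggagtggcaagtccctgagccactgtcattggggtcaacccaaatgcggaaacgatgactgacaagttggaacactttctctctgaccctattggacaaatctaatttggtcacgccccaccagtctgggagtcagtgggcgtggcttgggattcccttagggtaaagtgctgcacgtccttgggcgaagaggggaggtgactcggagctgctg
Cox7a2 (chr9:79759804-79760103, minus strand): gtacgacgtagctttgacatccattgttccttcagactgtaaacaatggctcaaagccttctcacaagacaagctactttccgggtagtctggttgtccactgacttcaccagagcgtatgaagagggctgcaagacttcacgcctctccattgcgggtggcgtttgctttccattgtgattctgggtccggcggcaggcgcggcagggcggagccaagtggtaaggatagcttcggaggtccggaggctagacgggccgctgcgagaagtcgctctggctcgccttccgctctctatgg
Atp5g1 (chr11:96075582-96075881, minus strand): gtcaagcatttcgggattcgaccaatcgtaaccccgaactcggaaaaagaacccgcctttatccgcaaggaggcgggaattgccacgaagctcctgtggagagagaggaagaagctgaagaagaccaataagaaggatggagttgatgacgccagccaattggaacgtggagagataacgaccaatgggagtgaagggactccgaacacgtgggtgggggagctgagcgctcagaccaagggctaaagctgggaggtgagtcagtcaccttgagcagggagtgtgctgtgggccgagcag
Atp5g2 (chr15:102670998-102671297, minus strand): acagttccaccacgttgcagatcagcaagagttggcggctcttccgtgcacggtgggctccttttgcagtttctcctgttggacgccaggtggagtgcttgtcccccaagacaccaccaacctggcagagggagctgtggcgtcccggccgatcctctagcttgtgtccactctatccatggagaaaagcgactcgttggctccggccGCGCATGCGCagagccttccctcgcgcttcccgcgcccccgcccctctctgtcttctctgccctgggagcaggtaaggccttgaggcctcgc
Atp5g3 (chr2:73911277-73911576, minus strand): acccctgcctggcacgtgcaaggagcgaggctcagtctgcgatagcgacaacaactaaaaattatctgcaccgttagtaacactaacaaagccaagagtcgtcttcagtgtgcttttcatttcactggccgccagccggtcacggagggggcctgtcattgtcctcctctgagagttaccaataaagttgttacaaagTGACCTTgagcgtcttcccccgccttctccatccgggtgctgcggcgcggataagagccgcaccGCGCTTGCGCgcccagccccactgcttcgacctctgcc
Atp5k (chr5:108434350-108434649, minus strand): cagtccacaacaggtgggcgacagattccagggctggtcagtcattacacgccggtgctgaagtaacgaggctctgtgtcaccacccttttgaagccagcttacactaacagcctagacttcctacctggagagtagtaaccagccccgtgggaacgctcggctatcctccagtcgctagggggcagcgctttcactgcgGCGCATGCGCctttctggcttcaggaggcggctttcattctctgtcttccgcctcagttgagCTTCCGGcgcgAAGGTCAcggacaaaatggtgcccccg
The Atp5g2 window held an NRF1 match, the Atp5g3 window NRF1 and ERR matches, and the Atp5k window NRF1, ETS and ERR matches. The windows of Cox7a1, Cox7a2 and Atp5g1 held none of these letters. Windows were found for 77 of the 94 genes, 82 windows in all. The NRF1 motif was in 24.4% of them, against 4.60% of the 32851 promoter windows of all genes. The YY1 motif was in 23.2% against 6.05%, the ETS motif in 23.2% against 8.86%, and the ERR motif in 9.76% against 4.72%. A match describes the letters of the window and is not evidence of binding.

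The SH045 section held 790 spots with a median of 27733 UMIs (distinct RNA molecules counted), and the section labelled Vehicle 676 spots with a median of 4932.5. The tissue flag matched all 790 spots of the SH045 matrix but marked 1210 positions for the Vehicle section, of which 570 were among its 676 spots. All spots were used. The sections share 335 barcodes, which mark grid positions and not cells. Both sections expressed kidney tubule markers, with Umod, the thick ascending limb marker, at 3373 CPM (UMIs per 1000000 of a section's total) in the SH045 section against 1470 CPM in the section labelled Vehicle, although the 6 markers of that segment did not move together (2 lower, 2 higher). The injury markers Havcr1 and Lcn2 were at 992 and 1233 CPM in the SH045 section but at 1.62 and 2.08 CPM, from 7 and 9 UMIs, in the section labelled Vehicle, although its label names the same surgery. Every direction below compares these libraries as labelled.

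Nearly the whole nuclear chain stood at a lower level in the SH045 section. The 94 genes together took 3.70% of UMIs there and 7.97% in the section labelled Vehicle, that is 36959 against 79687 CPM, a 2.16-fold difference (95% interval 2.15 to 2.17). Each section was also cut by position into 4 blocks, to show the spread within it. The SH045 blocks lay between 29315 and 42005 CPM and the Vehicle blocks between 72669 and 85338 CPM, so the sections did not overlap. In a bulk measure of this kind, fewer cells of a type and less RNA per cell cannot be told apart.

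A gene was counted as measured when it reached 10 CPM in either section, and as lower or higher at 1.5-fold or more. Of the 89 members measured, 75 were lower in the SH045 section, 2 were higher and 12 lay within 1.5-fold. Among all 10463 genes measured, 12.0% were lower and 53.2% higher. The median log2 ratio, SH045 minus Vehicle on log2(CPM + 1), was -1.01 for the members and 0.63 for all genes. Taken relative to that median of all genes, 86 members were lower and none was higher (median -1.64), against 25.7% of all genes lower. The ranges over position blocks were apart, with the SH045 section lower, for 79 of the 89 members and for 13.5% of all genes measured. Members are mostly abundant transcripts. Among genes that reached 200 CPM in either section, 70 of 75 members were lower, against 36.9% of all 1009 such genes, whose median log2 ratio was -0.03.

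**Figure D1:**
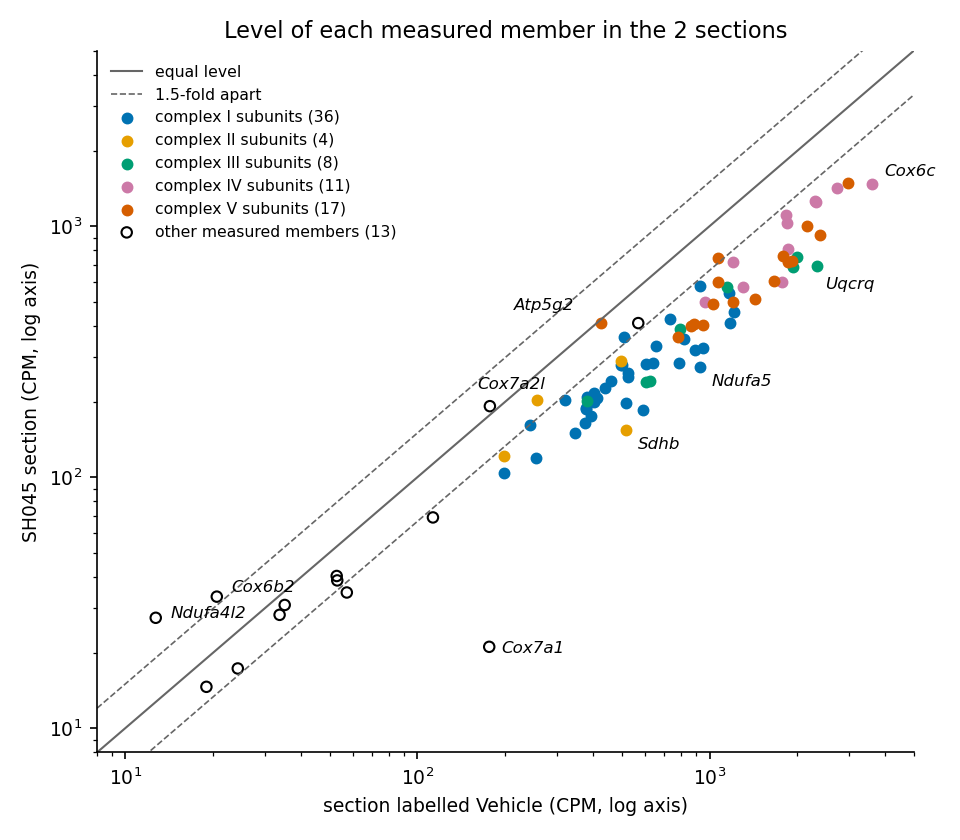
Level of each of the 89 measured members in the section labelled Vehicle (horizontal) and in the SH045 section (vertical), in CPM on log axes, with 1 point per gene coloured by complex and dashed lines at 1.5-fold. Most structural subunits lie below the lower dashed line, Cox7a1 lies farthest below it at 21.1 against 176 CPM, and Ndufa4l2 and Cox6b2 lie above the upper one.

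Complex I, the NADH dehydrogenase, was lower in sum at 9640 CPM (blocks 7642 to 10963) against 20922 CPM (18987 to 22260.5), a 2.17-fold difference (2.15 to 2.19). Of the 36 subunits summed, 35 were lower, with a median log2 ratio of -1.01. The 7 core subunits, which carry the flavin and iron-sulphur centres, and the 29 supernumerary subunits, which surround them, differed by like amounts, 2.13-fold (2.08 to 2.17) and 2.18-fold (2.16 to 2.20). Ndufa5, a supernumerary subunit of the matrix arm, had the lowest ratio, with 274 CPM in the SH045 section against 924 CPM (3.38-fold, 3.24 to 3.51). Its block ranges of 213 to 326 and 743 to 1031 CPM were far apart. Ndufa6 stood at 457 against 1214 CPM and Ndufa2 at 542 against 1165 CPM. Ndufa7 was the summed subunit within 1.5-fold, at 361 against 511 CPM, and even there the block ranges did not meet (324 to 432 and 470 to 552). Ndufb1-ps stood at 411 against 570 CPM, also within 1.5-fold. Many small subunits have processed pseudogenes, and how reads shared with such copies were assigned is not given in the sources used here.

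Complex II, succinate dehydrogenase, links the citrate cycle to the chain and has no subunit encoded in mitochondria. It summed to 768 CPM against 1470 CPM (1.92-fold, 1.86 to 1.97), and its 4 genes ranged in log2 ratio from -1.74 to -0.34. Sdhb, the iron-sulphur subunit, was at 154 CPM (blocks 96.7 to 183) against 517 CPM (465 to 549), a 3.35-fold difference (3.17 to 3.53). Sdha, the flavoprotein subunit, was at 289 against 499 CPM (1.73-fold), and the membrane anchor Sdhd at 122 against 198 CPM (1.63-fold). The other membrane anchor, Sdhc, was at 203 CPM (159 to 233) against 257 CPM (213 to 305), within 1.5-fold and with overlapping blocks.

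Complex III, the cytochrome bc1 complex, showed the largest summed difference of the 5 complexes, with 3778 CPM against 9810 CPM (2.60-fold, 2.57 to 2.63). All 8 subunits in the rule were lower, with a median log2 ratio of -1.35, and no block ranges met. Uqcrq, a small membrane subunit, was at 692 CPM (475 to 757) against 2332 CPM (2181 to 2505), a 3.37-fold difference (3.29 to 3.46). Uqcr10 was at 755 against 1990 CPM, Uqcrfs1, the Rieske iron-sulphur protein, at 242 against 625 CPM, and the core protein Uqcrc2, with the smallest difference, at 201 against 382 CPM. The share of complex III among all structural UMIs was 10.5% (10.4 to 10.6%) for SH045 against 12.5% (12.4 to 12.6%). Cyc1, which encodes cytochrome c1 of this complex but has a symbol outside the rule, was at 280 against 659 CPM.

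Complex IV, cytochrome c oxidase, summed to 10746 CPM (8259 to 12522) against 21699 CPM (19296 to 23676), a 2.02-fold difference (2.004 to 2.035). All 11 ubiquitous subunits were lower, with a median of -0.93 and log2 ratios from -1.56 to -0.72. Cox6c was at 1470 CPM (1225 to 1764) against 3597 CPM (2701 to 4320), and Cox4i1 at 1426 CPM (1112 to 1577) against 2723 CPM (2381 to 2955). Cox7a2 had the lowest ratio of these 11, with 598 against 1770 CPM (2.96-fold, 2.88 to 3.05), and Cox6a1 the smallest difference, with 1107 against 1826 CPM (1.65-fold). Complex IV made up 29.9% of structural UMIs against 27.7%, the opposite shift to complex III. Ndufa4, named as a complex I gene but now known as a complex IV subunit, was at 1028 against 1847 CPM.

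Complex V summed to 11065 CPM (9017 to 12330.3) against 24438 CPM (22489 to 25985), a 2.21-fold difference (2.19 to 2.22), and 15 of its 17 genes were lower. The 6 genes of the catalytic F1 part and stalk were 2.24-fold lower in sum (2.21 to 2.26). Atp5b, the catalytic beta subunit, was at 1486 CPM (1211 to 1636) against 2983 CPM (2937 to 3042), and Atp5e, the epsilon subunit, at 926 against 2381 CPM. The 8 membrane-part (Fo) genes other than subunit c were 2.41-fold lower (2.38 to 2.43), and Atp5k, the e subunit, was at 512 CPM (390 to 596) against 1433 CPM (1245 to 1564). The 3 genes of subunit c differed less, 1.52-fold in sum (1.49 to 1.55), and only 1 of them was called lower.

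**Figure D2:**
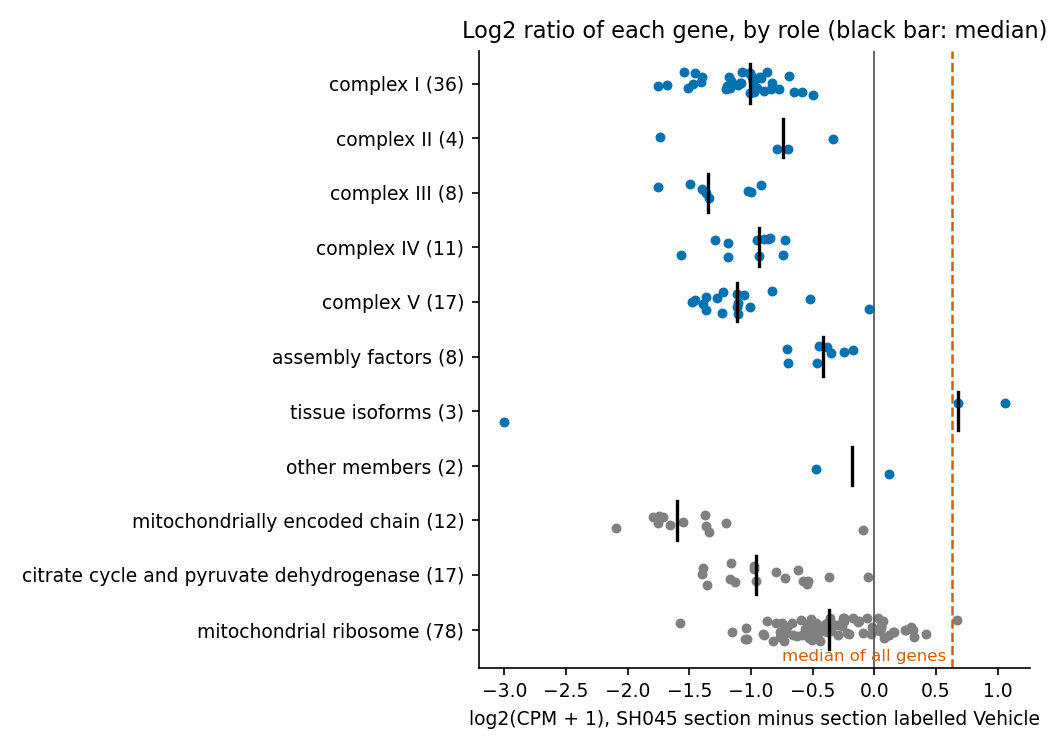
Log2 ratio (SH045 minus Vehicle) of each measured gene, 1 point per gene, with members in blue by role and 3 comparison lists in grey. Black bars are medians, the dashed line is the median of all genes at 0.63, and the number of genes stands in brackets. The medians of the 5 complexes lie between -1.35 and -0.74, that of the assembly factors at -0.41, and the tissue isoforms hold both the lowest and the highest members.

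Subunit c forms the rotor ring of ATP synthase. Its mature protein is the same from all 3 genes, which differ in the import sequence and in their regulation. Atp5g1 was at 407 CPM (blocks 295 to 456) in the SH045 section against 882 CPM (786 to 945) in the section labelled Vehicle, a 2.17-fold difference (2.09 to 2.25) like that of the rest of the complex. Atp5g3 was at 745 CPM (567 to 833) against 1069 CPM (849 to 1282), a 1.44-fold difference with block ranges that only just failed to meet. Atp5g2 was at 412 CPM (382 to 451) against 425 CPM (337 to 476), a ratio of 1.03 (0.981 to 1.09) with overlapping ranges. Relative to the median of all genes, all 3 were called lower. Within the family, the Atp5g1 share of UMIs was 26.0% (25.6 to 26.5%) for SH045 against 37.1% (36.2 to 38.1%). Atp5g2 made up 26.3% (25.9 to 26.8%) and 17.9% (17.1 to 18.6%), and Atp5g3 47.6% and 45.0%. The block ranges of the Atp5g1 share, 22.9 to 27.3% and 33.7 to 38.2%, did not overlap, nor did those of the Atp5g2 share, 23.0 to 33.2% and 13.8 to 20.5%. As shares of all structural UMIs, subunit c stood at 4.34% in the SH045 section and 3.03% in the other, while the other Fo genes stood at 13.4% and 14.8%. These 3 genes also differ in the promoter letters printed above, where the Atp5g1 window held no match and the other windows an NRF1 match. The window of Atp5k, with the lowest ratio of complex V, held an NRF1 match too. Of the members with a window, 19 of 77 had the NRF1 motif, and 15 of the 64 called lower. A link between these letters and the levels was not tested.

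The 8 Ndufaf genes encode factors that build complex I without staying in it. They summed to 274 CPM (250 to 291) against 388 CPM (367 to 427), a 1.42-fold difference (1.342 to 1.496), smaller than that of the complex itself. Only Ndufaf3 and Ndufaf8 were called lower, at 34.7 against 57.3 CPM and at 69.1 against 113 CPM. Ndufaf4 was at 40.4 against 52.9 CPM and Ndufaf7 at 31.0 against 35.1 CPM. None was higher, and the median log2 ratio was -0.41. Relative to the median of all genes, all 8 were lower (median -1.05). The 10 complex I assembly genes with other symbols had 3 lower, none higher and a median of -0.48, with Ecsit at 32.5 against 82.0 CPM. Of 31 measured assembly genes of complexes II to V, 8 were lower and 2 higher (median -0.25), and relative to all genes 24 were lower and none higher. Cox17, a copper chaperone for complex IV, was at 252 against 397 CPM, and Cmc1, another complex IV factor, at 53.6 against 34.0 CPM.

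The tissue isoforms of complex IV held the members of most different behaviour. Cox7a1, the isoform best known from heart and skeletal muscle (ENSMUSG00000074218, chr7:30184171-30186030), was at 21.1 CPM (blocks 14.7 to 29.9) in the SH045 section against 176 CPM (162 to 194) in the section labelled Vehicle. This 8.35-fold difference (7.44 to 9.39) was the largest of any member, and on 472 against 762 UMIs its share of the Cox7a pair was 3.41% (3.11 to 3.72%) against 9.05% (8.44 to 9.68%). The 7 markers of striated muscle summed to 3.35 CPM against 4.16 CPM, and none reached 10 CPM. In the section labelled Vehicle, 4 of them had no UMI. With every spot thinned to 2500 UMIs, 6.22% of 788 SH045 spots and 32.8% of 561 Vehicle spots held a Cox7a1 UMI, and without thinning 40.1% and 56.2% did.

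Ndufa4l2, a hypoxia-induced relative of Ndufa4 (ENSMUSG00000040280, chr10:127509274-127517154), was the member with the highest ratio. It was at 27.5 CPM (17.2 to 54.0) against 12.7 CPM (7.54 to 20.1), a 2.16-fold higher level (1.64 to 2.91) with overlapping blocks, and relative to all genes it was within 1.5-fold. Its share of the Ndufa4 pair was 2.61% (2.41 to 2.82%) against 0.684% (0.515 to 0.889%). Cox6b2, the testis isoform of Cox6b (ENSMUSG00000051811, chr7:4751792-4753094), was at 33.4 CPM (30.6 to 35.7) against 20.6 CPM (17.0 to 26.3), and its blocks did not overlap. Its share of the Cox6b pair was 4.44% (4.14 to 4.76%) against 1.68% (1.35 to 2.07%). The 5 germ cell markers summed to 0.715 CPM in the SH045 section and had no UMI in the other. Against the shift of all genes neither gene was called higher.

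The remaining isoforms were scarce. Cox4i2, the lung isoform of Cox4i, was at 3.04 against 2.54 CPM, from 68 and 11 UMIs, or 0.213% and 0.0933% of its pair. Cox6a2 rested on 9 and 6 UMIs, and Cox8b on 1 and 0. Cox7b2 and Cox8c had no UMI in either section, which, taking 3 counts as the limit that a count of 0 allows, permits a Cox7b2 share of its pair of up to 0.0234% in the SH045 section and 0.0532% in the other. Cox7a2l, described as a factor that joins complexes III and IV into supercomplexes, was at 192 CPM (177 to 210) against 177 CPM (138 to 213). Whether it does so in these mice was not measured. Its ratio of 0.923 (0.853 to 0.997), Vehicle over SH045, left it within 1.5-fold, also relative to all genes, where its family relative Cox7a2 was 2.96-fold lower in the SH045 section.

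**Figure D3:**
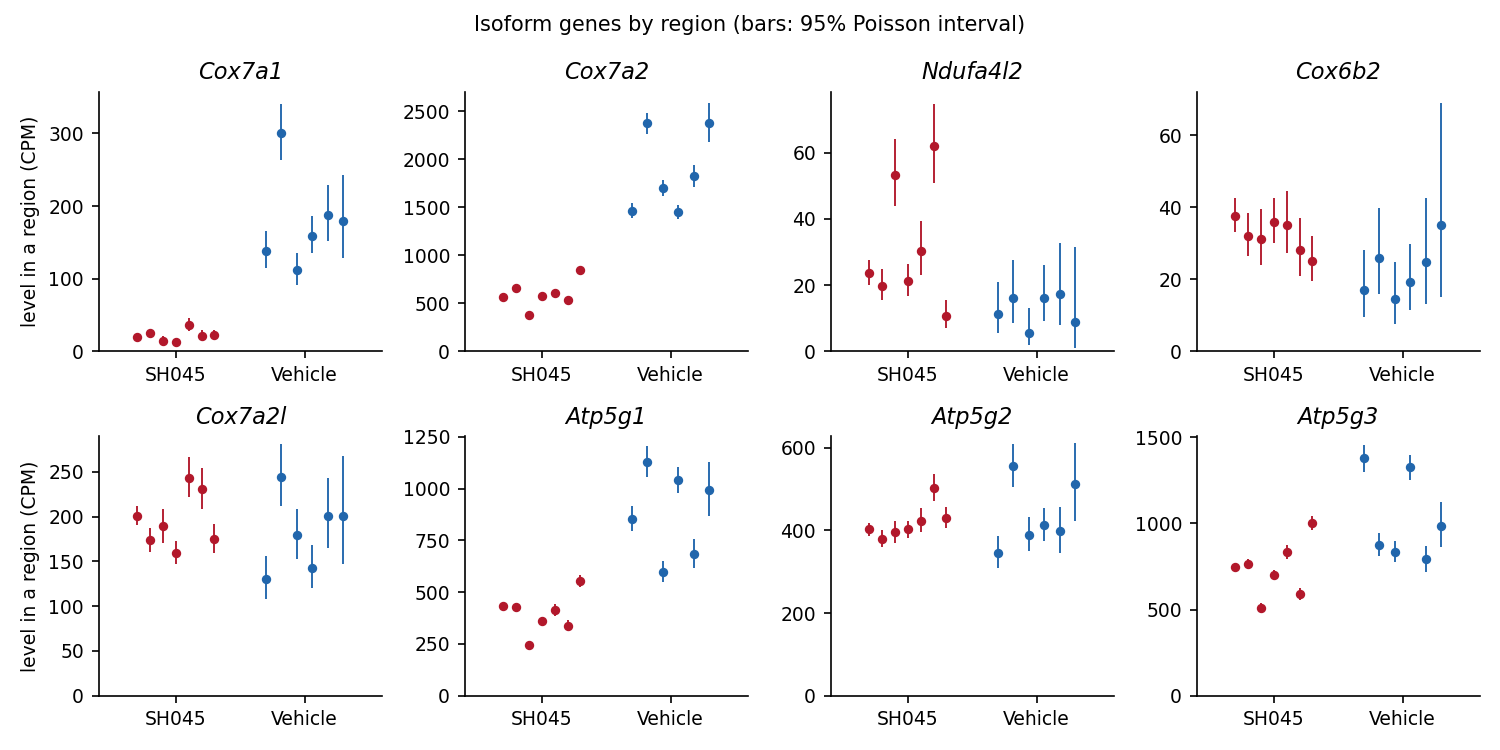
Level of 8 isoform genes in each region of the 2 sections, in CPM, with 1 point per region in order of region number from left to right and 95% Poisson intervals as bars. Cox7a1, Cox7a2 and Atp5g1 lie lower in every SH045 region than in any Vehicle region, while Cox7a2l and Atp5g2 overlap and Ndufa4l2 is highest in SH045 regions 3 and 6.

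Genes around the chain differed less uniformly. The mitochondrially encoded subunits summed to 42436 against 103636 CPM, with 11 of 12 measured genes lower and a median of -1.60. No such gene had block ranges apart, since the Vehicle blocks alone spanned 31139 to 167743 CPM. The measured gene within 1.5-fold was mt-Co1, a catalytic core subunit of complex IV, at 9166 against 9782 CPM. Of 12 carriers and partners 5 were lower, among them Cycs, cytochrome c, at 320 against 1078 CPM and the ADP/ATP carrier Slc25a5 at 303 against 1222 CPM. In the citrate cycle and pyruvate dehydrogenase list 12 of 17 were lower and none higher (median -0.96). Citrate synthase, Cs, was at 145 against 150 CPM, within 1.5-fold although lower relative to the median of all genes, while Idh3b stood at 124 against 325 CPM. Of 78 mitochondrial ribosomal proteins 22 were lower and 1 higher (median -0.37), and of 17 import genes 4 were lower (median -0.40). Relative to the median of all genes, 61 of these ribosomal proteins and 15 of these import genes were lower and none was higher. Among the 9 measured regulators, Esrra, the receptor ERR alpha, was at 60.1 against 163 CPM and its coactivator Ppargc1a at 18.2 against 32.6 CPM. Nrf1 was higher at 24.1 against 11.8 CPM, as were Gabpa, an ETS factor, at 27.7 against 14.3 CPM and Pprc1 at 33.6 against 10.4 CPM. Relative to the median of all genes, 1 of these regulators, Pprc1, was still called higher.

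Cell type markers moved with these differences, and their part in them was not tested. All 12 markers of the proximal convoluted tubule were lower in the SH045 section, 1981 CPM (blocks 811 to 2580) against 13163 CPM (12749 to 13959) in sum. All 6 distal convoluted and connecting tubule markers were lower, 491 against 22752 CPM. Principal cell markers, 508 against 986 CPM, and intercalated cell markers, 224 against 865 CPM, were also lower in sum. In each of these lists 5 of 6 were lower, and 1 intercalated marker was higher. The remaining tubule lists differed in another way. Thin limb and inner medulla markers summed to 1335 against 531 CPM, with 5 of 6 higher and none lower. Proximal straight tubule markers summed to 846 against 548 CPM, with 5 of 7 higher and 1 lower, and thick ascending limb markers to 3910 against 2552 CPM, with 2 of 6 higher and 2 lower (median log2 ratio -0.11). Umod makes up most of the latter sum, while Egf was at 38.0 against 348 CPM. Relative to the median of all genes, 4 thick ascending limb markers were lower and none was higher. On that scale 2 proximal straight markers were lower and 3 higher, and 1 thin limb and inner medulla marker was lower and 4 higher. All 7 fibroblast markers were higher, 2760 against 78.8 CPM, as were all 9 macrophage markers, 2169 against 285 CPM, and 10 of 11 markers of injured tubule, 28056 against 1890 CPM.

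The difference was present in nearly every spot. Among spots with at least 1000 UMIs, the members took a median of 3.44% of a SH045 spot's UMIs, from 2.04% to 6.61% over 788 spots. In the section labelled Vehicle the median was 7.57%, from 4.37% to 14.98% over 659 spots. No SH045 spot exceeded the Vehicle median, and 1 of 788 exceeded the lowest Vehicle decile of 6.34%. Conversely, 658 of 659 Vehicle spots lay above the highest SH045 decile of 4.52%. Spots of a section share 1 mouse and 1 library and are not replicates.

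**Figure D4:**
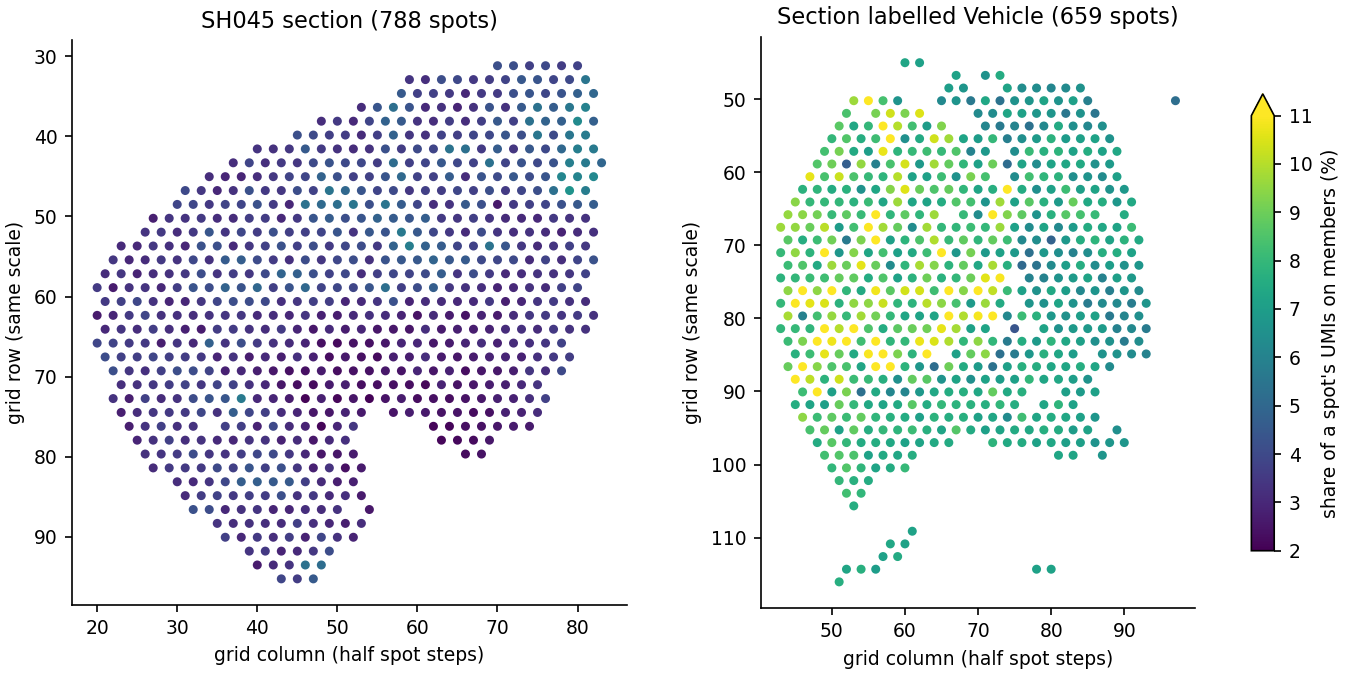
Position of each spot with at least 1000 UMIs on the capture grid of the 2 sections, coloured by the share of its UMIs on the 94 members on 1 common scale of 2 to 11%. The SH045 section is darker, with a median of 3.44%, and the section labelled Vehicle lighter, with a median of 7.57% and its highest spots on the side of low grid columns.

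Spots were grouped into regions by Leiden clustering in each section separately, without the members and without mitochondrially encoded genes. Regions are called by number and leading genes. In the SH045 section the summed level of members was highest in region 7 (64 spots), led by the proximal tubule genes Slc22a8 and Miox, at 48760 CPM (48493 to 49028). It was lowest in region 3 (107 spots), led by Thbs4, Col6a4 and Krt14, at 25912 CPM (25695 to 26129). The remaining 5 regions lay between 31821 and 40701 CPM. Of the 76 structural subunits 74 were highest in region 7 and 72 lowest in region 3. These counts were not made over all genes, so how far they are particular to the members was not tested. Proximal convoluted markers summed to 7197 CPM in region 7 and 447 CPM in region 3, fibroblast markers to 1138 and 7040 CPM, and mitochondrially encoded subunits to 68664 and 24475 CPM. The exceptions at the top were Atp5g2, highest in region 6 at 503 CPM, and Ndufb8, highest in region 2 at 615 CPM against 392 CPM in all other spots.

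In the section labelled Vehicle the members were highest in region 6 (35 spots), led by Pvalb, at 98736 CPM (97452 to 100032) and in region 2 (142 spots), led by Klk1, at 97200 CPM (96522 to 97881). Pvalb marks the distal convoluted tubule and Klk1 the connecting tubule. Distal convoluted and connecting markers summed to 15690 CPM in region 6 and 74499 CPM in region 2. In regions 1 and 4 they summed to 13622 and 14961 CPM, close to region 6. Region 6 also held 13268 CPM of proximal convoluted markers, and region 2 held 7028 CPM. Regions 6 and 2 held the highest level of 30 and 35 structural subunits, counts that were likewise not made over all genes. Region 3 (115 spots), with the most proximal convoluted marker RNA at 18965 CPM, was at 74572 CPM, and region 5 (52 spots), led by Slc12a1 and Umod of the thick ascending limb, at 82424 CPM. Regions 1 and 4 (231 and 101 spots), in which mitochondrially encoded subunits took 200112 and 180998 CPM, were at 69651 and 73095 CPM. Their leading genes were not segment markers: mt-Atp8, mt-Nd4l and Gm42418 led region 1, and Lars2, Gm42418 and Malat1 led region 4. Gm42418 was at 7210 CPM in region 1 and 6643 CPM in region 4, against 2254 and 2259 CPM in all other spots. Only 25 of the 101 spots of region 4 carried the tissue flag. Per 1000000 UMIs other than mitochondrially encoded, regions 1 and 4 stood at 87076 and 89249, above the 78362 of region 3.

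The highest SH045 region, at 48760 CPM, lay below the lowest Vehicle region, at 69651 CPM. For 67 of the 76 structural subunits every SH045 region was below every Vehicle region. The same count was not made over all genes, so how far it is particular to the members was not tested. The other 9 subunits, whose ranges over regions overlapped, were Atp5g2, Atp5g3, Cox5a, Ndufa1, Ndufb3, Ndufb6, Ndufc2, Ndufv3 and Sdhc. The proximal-led regions of the 2 sections, SH045 region 7 and Vehicle region 3, differed in members (48760 against 74572 CPM) and also in proximal convoluted markers (7197 against 18965 CPM) and injured tubule markers (14223 against 731 CPM).

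**Figure D5:**
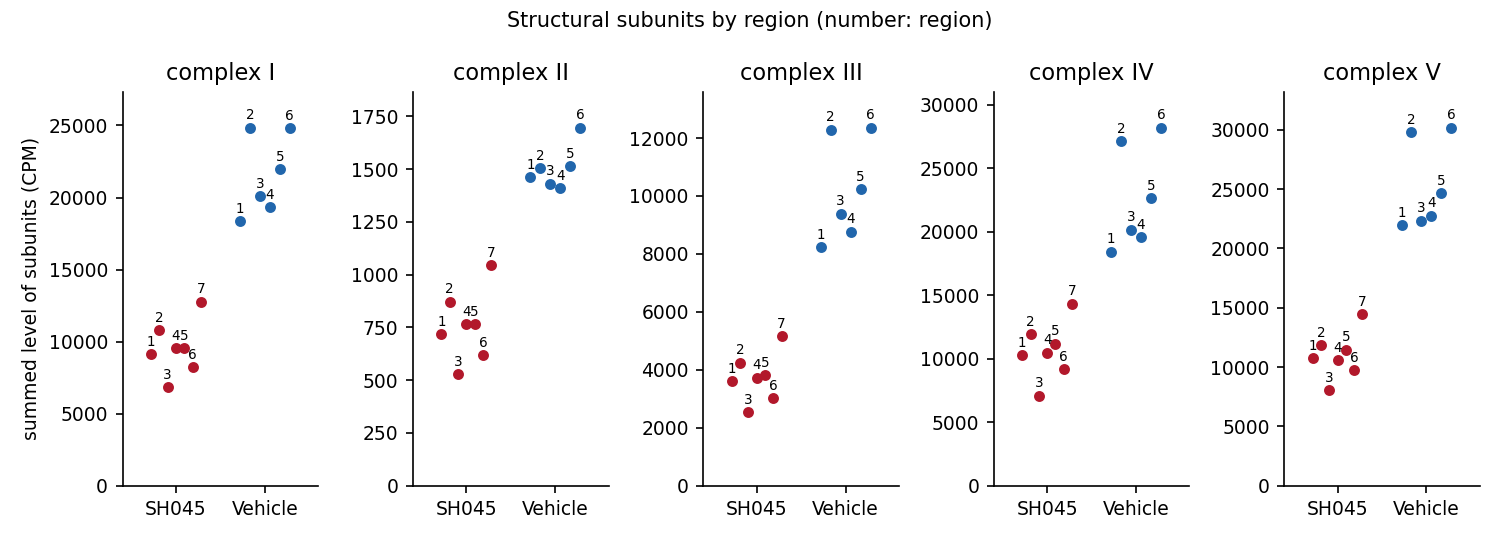
Summed level of the structural subunits of each complex (CPM, axes from 0) in the 7 SH045 regions and the 6 Vehicle regions, with 1 numbered point per region. In all 5 complexes SH045 region 7 is the highest and region 3 the lowest of that section, and every Vehicle region lies above every SH045 region.

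Single isoforms had regional patterns of their own. Cox7a1 ranged from 13.4 to 36.6 CPM over SH045 regions, highest in region 5, which was led by Fst, Aqp2 and Slc12a1. In the section labelled Vehicle it ranged from 112 CPM in region 3 to 300 CPM in region 2, the Klk1 region, where distal convoluted and connecting markers summed to 74499 CPM. Ndufa4l2 was highest in SH045 region 6 at 61.9 CPM and region 3 at 53.3 CPM, and lowest in region 7 at 10.7 CPM, an order opposite to that of most subunits. Cox4i2 was likewise highest in regions 3 and 6, at 8.02 and 7.93 CPM. Pericyte and vascular smooth muscle markers were also highest in those regions, at 1387 and 1344 CPM against 517 CPM in region 7. So were fibroblast markers, at 7040 and 4083 CPM against 1138 CPM, and endothelial markers, at 1015 and 1000 CPM against 401 CPM. The part of these markers and of the distal markers in the isoform levels was not tested.

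Across spots, the complexes varied together. With every spot thinned to 2500 UMIs, Spearman's rho between complexes I and IV was 0.51 over 788 SH045 spots and 0.53 over 561 Vehicle spots. Between complexes I and V it was 0.46 in each section, and between I and III 0.35 and 0.39. Complex II, with few UMIs in a thinned spot, had values of at most 0.13 with the other complexes. All these counts come from the same spots and share their depth and total, and rho depended on depth: for complexes I and IV in the SH045 section it was 0.30 at 1000 UMIs and 0.63 at 5000 UMIs. Structural subunits as a whole had rho 0.50 with proximal convoluted markers in the SH045 section and -0.38 in the section labelled Vehicle. With distal convoluted and connecting markers the values were 0.19 and 0.46, and with fibroblast markers -0.52 and 0.05. The fibroblast markers held only 341 UMIs in the whole section labelled Vehicle before thinning, so a value near 0 there may reflect few counts. With mitochondrially encoded subunits rho was 0.60 in the SH045 section and -0.49 in the section labelled Vehicle. Counts of mitochondrially encoded genes take up part of a spot's fixed total. When they were removed before thinning and their share of the spot was used instead, rho was 0.64 over 787 SH045 spots and 0.04 over 516 Vehicle spots.

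By distance from the section's edge, in 4 classes, members stood between 36065 and 38360 CPM in the SH045 section. In the section labelled Vehicle they stood at 75405 CPM in the 139 spots at the edge and at 85302 CPM in the 163 spots at 7 or more steps from it. Mitochondrially encoded subunits ran the other way, from 152966 CPM at the edge to 40548 CPM inside. Per 1000000 UMIs other than mitochondrially encoded, a scale added after seeing the data, the 4 Vehicle classes stood between 88720.3 and 89022, with no gradient from edge to inside. Even the edge spots of that section were above every SH045 region.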

How the data were processed

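The authors deposited, per the file headers, UMI counts per gene and spot from Space Ranger 2.0.1. Per the submitters' processing notes the build was mm10. The aligner's settings and the annotation's release were not given in the sources used here. The deposited position tables hold grid positions and a tissue flag. Groups follow the treatment labels.

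Counts were summed per section and scaled to CPM, with exact Poisson 95% intervals. Folds have exact conditional binomial intervals and shares exact Clopper-Pearson intervals. UMI counts are not scaled to transcript length, so levels are compared within a gene between sections, or as shares within a family. A pseudocount of 1 CPM was added before log2, which understates ratios of low genes. All 94 members were matched by symbol or synonym to RefSeq on GRCm38.p6. Spots with fewer than 2500 UMIs (2 and 115) were left out of thinned values. Regions came from Leiden clustering (scanpy 1.11.5, Python 3.11.15). Doublet calling does not apply to spots. The level and interval steps were tested on simulated data in which most genes were unchanged. The calls were thus not tested under a shift of most genes like that between these sections.

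Members, gene lists and motifs were chosen with earlier results of these data known. Named genes are, per complex and for the assembly factors, those of highest level, lowest ratio and highest ratio, all isoform families, and the members not lower with the highest ratios. Ndufa7, Sdhd, Uqcrfs1, Ndufb8 and the list genes named beside the members were chosen after their values were seen.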

Additional observations from a re-analysis of the deposited data

How the results depend on the processing

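Members, complexes and isoform shares were recomputed under other scalings, spot choices and filters. The count of lower members lay between 72 and 86 in 11 alternatives and was 47 when a call needed 2-fold. The share of all genes called lower was 12.0% in the main setting. It was 26.6% after TMM scaling and 28.2% after scaling by the median of ratios, which both gave 86 lower members. No share of all genes was computed at 2-fold. All 5 complexes were lower under all 8 alternatives. The median log2 ratio of members, -1.01, was -1.62 after TMM scaling and -1.66 after scaling by the median of ratios (edgeR 4.0.16), which set the median of all genes to 0.00 and -0.05. With these factors no member was higher. The summed log2 ratio, -1.11, was -1.72 and -1.76 under those scalings, -1.20 without mitochondrially encoded counts in the total, -1.14 in flagged spots, -1.23 against Vehicle spots under 10% mitochondrially encoded, -1.15 as a mean over spots and -1.16 in thinned spots. Thinning to 2500 UMIs gave family shares in the SH045 section of 4.76% for Cox7a1, 2.98% for Ndufa4l2, 4.87% for Cox6b2, 0% for Cox6a2, 26.9% for Atp5g1 and 46.9% for Atp5g3. In the section labelled Vehicle it gave 17.1% for Atp5g2 and 46.3% for Atp5g3, and flagged spots gave 19.0% and 43.7%. The direction of each of these share differences between sections was kept, except that the Atp5g3 shares lay closer together after thinning. Changes of sign were counted only where a correlation was not negligible in the main setting. This left out fibroblast markers in the section labelled Vehicle. The only change so counted was that of structural subunits against mitochondrially encoded subunits in the section labelled Vehicle. It went from -0.49 to 0.040 when mitochondrially encoded counts were removed before thinning, an alternative chosen after seeing the data. In that section the removal takes those counts out of the total by construction. The ratio of the highest to the lowest region, 1.88 in the SH045 section and 1.42 in the other, lay between 1.67 and 1.88 and between 1.37 and 1.51 under other region settings.

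No paired analysis was possible because each group holds 1 section. Leaving out a replicate has no value for the same reason. Cox4i2, Cox6a2, Cox7b2, Cox8b and Cox8c were under 10 CPM in both sections, and their intervals are wide.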
